A study of Mus musculus with 2 samples.

Results

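Checkpoint-receptor-high CD8 T cells are described here in 2 single-cell RNA libraries of live CD45+ cells sorted from B16F10 tumors, a transplanted mouse melanoma. The cells were chosen by their UMI counts, a UMI being a molecular barcode that marks 1 captured transcript. A barcode had to hold at least 200 genes and at most 10% mitochondrial UMIs. It had to hold at least 2 UMIs of Cd3e, Cd3d and Cd3g together and at least 2 of Cd8a and Cd8b1. Cd4 and Foxp3 had to be at 0, and Pdcd1, Lag3, Havcr2 and Tigit together at 3 or more. Cycling cells (3 or more UMIs of Mki67 and Top2a), cells with more than 2 C1q UMIs and cells with more than 1 Cd79a or Cd79b UMI were left out. These limits selected 102 members of 12815 kept barcodes: 52 of 7086 in the control library and 50 of 5729 in the other library. No member barcode occurred in both libraries.

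The control tumors grew in C57BL/6 mice of genotype Usp18f/f, in which the Usp18 gene is floxed but intact. The other tumors grew in C57BL/6 mice of genotype Usp18f/f LysM-Cre, in which Cre is placed at the Lyz2 locus and acts in myeloid cells, not in T cells. All tumors were taken at day 14, and 4 tumors per group were pooled into 1 library. There is 1 library for each group, which allows no test of the groups. Every interval below for a gene or a share is a 95% interval for counting error only, which leaves out the spread between mice. Brackets around the median of a gene list are medians of the single genes' bounds, not intervals for that median.

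CD8 T cells that meet antigen again and again in a tumor come to carry inhibitory receptors. Pdcd1 encodes PD-1, Lag3 a receptor for MHC class II, Havcr2 the receptor TIM-3, and Tigit a receptor for nectin-like ligands. Such cells are known to range from a Tcf7 and Slamf6 expressing progenitor state to a Havcr2 expressing state with more granzyme. Tox and the Nr4a factors are transcription factors known to mark chronic antigen receptor signalling.

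The labels were checked on Usp18, whose product cleaves the modifier ISG15 from proteins and is itself induced by interferon. In the members Usp18 had 3 UMIs in the control library (7.39 CPM, that is counts per 1000000 UMIs) and 18 UMIs (53.0 CPM) in the library labelled knockout. Usp18 was thus higher in the library labelled knockout, against its label, but 16 of its 18 UMIs lay in members that also carried myeloid transcripts (described below). Without such cells Usp18 had 2 UMIs in each library. T cells are not the cells that Cre targets, and 3′ counts may lie outside the deleted exons. Lyz2, the lysozyme gene at whose locus Cre sits, had 382 UMIs in 9 control members and none in the library labelled knockout. That is at least 106-fold lower against a floor of 3 UMIs in that library. Control members without many myeloid transcripts held 7 of the 382 UMIs.

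The promoters of 4 genes on which the comparisons below turn are shown, as the 250 bases before the RefSeq start (GRCm38.p6), 5′ to 3′ on the gene's strand. Isg15 (ubiquitin-like modifier; chr4:156200819-156201068, minus strand) and Rsad2 (antiviral enzyme viperin; chr12:26456453-26456702, minus strand) stand for the interferon-stimulated genes. Capitals mark the core of the interferon-stimulated response element, GAAANNGAA or its reverse complement TTCNNTTTC.
Isg15: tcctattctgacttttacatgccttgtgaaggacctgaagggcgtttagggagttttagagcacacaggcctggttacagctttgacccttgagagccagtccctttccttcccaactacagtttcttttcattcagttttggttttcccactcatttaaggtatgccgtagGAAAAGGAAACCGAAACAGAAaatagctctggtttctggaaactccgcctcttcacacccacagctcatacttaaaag
Rsad2: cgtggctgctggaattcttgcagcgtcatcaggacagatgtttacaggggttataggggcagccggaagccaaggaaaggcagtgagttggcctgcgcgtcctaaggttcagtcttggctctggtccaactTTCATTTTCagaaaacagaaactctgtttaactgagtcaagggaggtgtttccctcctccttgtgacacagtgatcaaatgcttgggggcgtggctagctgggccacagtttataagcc
Isg15 held 3 overlapping matches on its own strand, and Rsad2 held 1 on the opposite strand. The core occurred in 7.13% of all 32851 RefSeq windows of this length and in 23 of the 48 genes of the interferon-stimulated list that have a window.

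Gzmb (granzyme B; chr14:56262335-56262584, minus strand) and Klrk1 (the activating receptor NKG2D; chr6:129623865-129624114, minus strand) stand for the effector genes. Capitals here mark TGTGGT, the core bound by RUNX factors, searched also as ACCACA.
Gzmb: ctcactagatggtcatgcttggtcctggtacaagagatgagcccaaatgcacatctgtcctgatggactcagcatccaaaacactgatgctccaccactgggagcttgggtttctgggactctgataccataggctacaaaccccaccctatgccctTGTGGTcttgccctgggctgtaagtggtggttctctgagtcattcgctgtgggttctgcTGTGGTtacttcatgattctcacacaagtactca
Klrk1: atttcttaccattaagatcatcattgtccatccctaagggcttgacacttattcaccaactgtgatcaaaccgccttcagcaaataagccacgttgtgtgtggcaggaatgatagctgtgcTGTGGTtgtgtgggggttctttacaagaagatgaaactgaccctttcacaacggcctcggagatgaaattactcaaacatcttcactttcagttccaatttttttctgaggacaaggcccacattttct
Gzmb held 2 matches and Klrk1 held 1. The RUNX core occurred in 14.0% of all windows. It occurred in 14 of the 21 genes of the cytotoxic list that have a window. The NK-type receptor list had it in 6 of the 17 such genes. Genes were again counted by a match in any of their windows, unlike the share of all windows. These letters are matches only, and no binding was measured.

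The 4 receptors that selected the cells were unequally present in them. Pdcd1 had 117 UMIs in each library, in 47 of 52 control members and 41 of 50 members of the library labelled knockout. Lag3 had 128 and 148 UMIs, in 44 and 47 members, and Havcr2 had 70 and 71 UMIs, in 29 and 34 members. Tigit contributed 6 and 8 UMIs, so it chose few cells. The receptor sum had a median of 5 and a highest value of 18 in the control library, and a median of 6.5 and a highest value of 17 in the library labelled knockout. Most members carried more than 1 of the receptors: 2 of them in 26 and 22 members, 3 in 19 and 20, and all 4 in 3 and 6. These counts describe the selection and carry no test. In B cells, which should lack these genes, Pdcd1 was found in no cell of either library and Havcr2 in 0.451% and 0.719% of cells, at median depths of 1547 and 1827 UMIs.

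Just inside the limit, 11 cells in each library had a receptor sum of 3, with control and labelled knockout median depths of 5698 and 3045 UMIs. Just outside it, 20 and 16 cells had a sum of 2, with median depths of 2834 and 3454.5 UMIs. Members were deeper than the CD8 T cells left below the limit. Their median depths were 5742.5 and 5632.5 UMIs, against 2709 and 3332 in the 384 and 263 checkpoint-low cells.

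**Figure D1:**
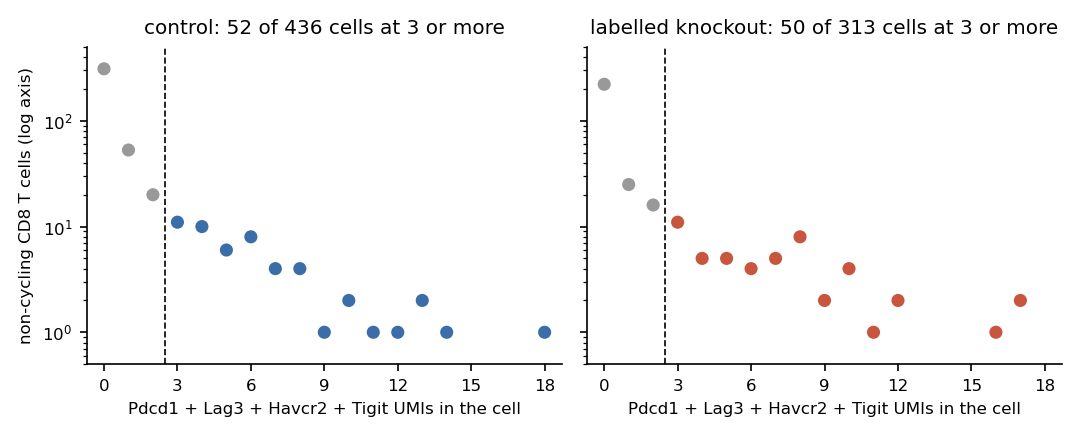
Number of non-cycling CD8 T cells (vertical axis, log scale) at each sum of Pdcd1, Lag3, Havcr2 and Tigit UMIs (horizontal axis), 1 panel per library. Coloured points right of the dashed line are the 52 and 50 members, and grey points are the 384 and 263 checkpoint-low cells, of which 311 and 222 had none of the receptors.

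B cell and gamma-delta T cell markers were at or near 0 in the members, while 15 barcodes also carried many myeloid transcripts. Of the 5 gamma-delta T cell markers in the feature table none had a UMI, and the B cell list had 4 UMIs in the control members and none in the others. Markers of CD4 and regulatory T cells (8 genes) had 238 UMIs in 39 of 52 control members and 196 UMIs in 42 of 50 members of the library labelled knockout. Their levels were 586 and 578 CPM, against 273 and 161 CPM in checkpoint-low CD8 T cells. NK cell markers (9 genes) had UMIs in 34 and 32 members. Macrophage, MHC class II and dendritic cell markers (24 genes, without Lyz2, Ly6c2 and Ccr7) were high in 7 control members and 8 members of the library labelled knockout. Those 15 held 43 to 835 and 27 to 727 such UMIs each, while the other 87 members held at most 11 and 12. The 15 were also deep, with medians of 16965 and 16027.5 UMIs, and they supplied 29.8% and 34.2% of all member UMIs. They are called myeloid-transcript-bearing cells below, and results between libraries are given with them and, for those that turn on named genes or lists, without them. That split was chosen after the marker sums had been seen.

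The share of members in the 2 libraries lay within counting error at the deposited depth. Among kept barcodes it was 0.734% (0.549 to 0.961, exact Clopper-Pearson interval) in the control library and 0.873% (0.648 to 1.15) in the library labelled knockout. Among non-cycling CD8 T cells it was 11.9% (9.04 to 15.3; 52 of 436) and 16% (50 of 313) in that order, a log2 ratio of 0.42 with a normal-approximation interval from -0.10 to 0.94. In a further setting cells were first thinned to 1500 UMIs, shallower cells were dropped and all limits were applied anew. Then 9 of 264 and 16 of 179 non-cycling CD8 T cells were members, and this ratio was 1.39 (0.24 to 2.54). Cycling cells made up similar parts of all CD8 T cells over the receptor limit, with 40 of 92 (43.5%) and 40 of 90 (44.4%).

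The members of the 2 libraries differed in sex-linked transcripts. Xist, the transcript of the silenced X chromosome, was found without Y-linked UMIs in 6 of 52 control members and 41 of 50 members of the library labelled knockout. Y-linked UMIs without Xist were found in 35 and 2 members. Among non-cycling CD8 T cells with Xist only, members made up 5.71% (6 of 105) and 17.1% (41 of 240). Among those with Y-linked UMIs only 35 of 175 and 2 of 26 (7.69%) were members, the opposite order. Sex and group cannot be told apart in the expression comparisons below, because fewer than 10 members of either sex were left in 1 of the libraries.

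Against the checkpoint-low CD8 T cells of their own library, the members had less of the transcripts of naive, memory and progenitor T cells. This contrast was made by the selection, so its values are a description. Of 22 progenitor and memory genes with at least 20 UMIs in the control library, 14 were at least 2-fold lower with a counting interval that excludes no difference and 1 was higher. Of 20 such genes in the library labelled knockout, 16 were lower and none was higher. The median log2 ratio of (CPM + 5) was -1.77 and -2.23, beside -0.03 and 0.02 over all tested genes. In the control library 6.85% of 7401 tested genes were lower and 5.92% higher by this rule, and in the library labelled knockout 5.38% of 7049 were lower and 5.18% higher.

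Tcf7, which encodes the progenitor factor TCF-1, stood at 440 CPM in checkpoint-low control cells and at 46.8 CPM in members, where 8 of 52 cells had a UMI. In the library labelled knockout it went from 307 to 20.6 CPM, with 3 of 50 members positive. Il7r, the interleukin-7 receptor of long-lived T cells, went from 419 to 78.8 CPM and from 523 to 109 CPM. The Il7r level in members was lower still without the myeloid-transcript-bearing cells, 24.6 and 13.4 CPM. Klf2 and S1pr1, which serve recirculation through lymph nodes, were lower in members of both libraries, and S1pr1 had no UMI in the 50 members of the library labelled knockout. Satb1 and Lef1, 2 further factors of naive T cells, gave log2 ratios of -3.58 and -2.64 in the control library and -3.38 and -2.82 in the other. Bcl2, a survival factor, was at -1.90 and -2.11.

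Transcription factors linked to chronic stimulation were higher in members of both libraries, with 8 of 20 and 8 of 19 tested genes past the limit and none lower. Nr4a2 went from 69.0 to 229 CPM in the control library and from 66.1 to 395 CPM in the library labelled knockout. Bhlhe40, Rbpj, Batf and Prdm1 were higher in both, with log2 ratios of 1.23, 1.58, 1.18 and 1.02 in the control library and 1.52, 1.21, 1.54 and 1.42 in the other. Tox was at 193 and 350 CPM in low and high control cells, a log2 ratio of 0.84 that missed the 2-fold limit. In the library labelled knockout Tox was at 72.6 and 292 CPM, a log2 ratio of 1.93. Eomes, a T-box factor, gave 0.63 and 0.87 and was past the limit in neither library.

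Inhibitory receptors that the selection did not use were higher in part. Of 16 and 15 tested, 5 and 6 were higher and 3 and 1 lower. Cd160, a receptor for HVEM, gave log2 ratios of 1.05 and 1.64, and Cd200r1, the receptor of CD200, gave 1.49 and 1.39. Ctla4 gave 0.53 (-0.07 to 1.12) in the control library and 1.04 (0.38 to 1.68) in the library labelled knockout. Entpd1, the ectoenzyme CD39, was higher in the control library (1.30) and at 0.84 in the other.

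Of the costimulation and cytokine receptor list, 6 of 23 genes were higher in members of each library, and 1 and none were lower. The medians were 0.03 and 0.54. Among the higher genes were 3 receptors of the TNF receptor family. Tnfrsf9 (4-1BB) went from 25.2 to 222 CPM in the control library and from 48.4 to 351 CPM in the library labelled knockout. Tnfrsf4 (OX40) and Tnfrsf18 (GITR) gave log2 ratios of 2.66 and 1.49, and of 2.43 and 1.70. Rgs16, a regulator of G protein signalling, was detected in 32 members of each library and gave 3.33 and 2.51.

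Of the cytokine and chemokine list, 9 of 13 genes were higher in control members and 6 of 13 in members of the library labelled knockout, with 1 and 2 lower. Ccl4, a chemokine that attracts monocytes and T cells, went from 258 to 2333 CPM in the control library and from 405 to 3569 CPM in the library labelled knockout. Ifng, the effector cytokine of CD8 T cells, gave log2 ratios of 2.44 and 3.11. Ccl1, a CCR8 ligand, had no UMI in 384 checkpoint-low control cells and 88 UMIs in 8 members, which is at least 85.9-fold higher. Of the glycolysis and hypoxia list, 10 of 22 genes were higher in control members and 2 of 23 in members of the library labelled knockout. With the cells bearing myeloid transcripts left out, the counts were 9 of 21 and 8 of 18, so that gap between the libraries was not kept. Over all tested genes 6.18% were then higher and 6.52% lower in the control library, and 7.53% and 5.34% in the other. Gapdh, a glycolytic enzyme, gave 1.44 and 1.08. The cytotoxic list had 3 of 16 genes higher and 1 lower in control members, and 10 of 17 higher and 2 lower in the library labelled knockout.

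Outside the lists, the genes ranked highest in both libraries included Nrgn, Mgl2, Serpinb6a, Tfrc, Vamp5, Ptms, Ciapin1, Odc1 and Pkp4. Nrgn, which encodes the calmodulin-binding protein neurogranin, had log2 ratios of 3.23 and 4.55. Tfrc, the transferrin receptor, had 1.75 and 1.88, and Odc1, the first enzyme of polyamine synthesis, had 2.08 and 1.57. Mgl2, a lectin of myeloid cells, was found in 2 members of each library and had no UMI in the 45 control members left without the myeloid-transcript-bearing cells. The lowest were Pde2a, Klf3, Dgka, Txk, Sidt1, Nsg2, Arl4c, Gramd3, 5730508B09Rik and Arhgef18. Pde2a, a cyclic nucleotide phosphodiesterase, had 75 and 56 UMIs in checkpoint-low cells and none in members.

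**Figure D2:**
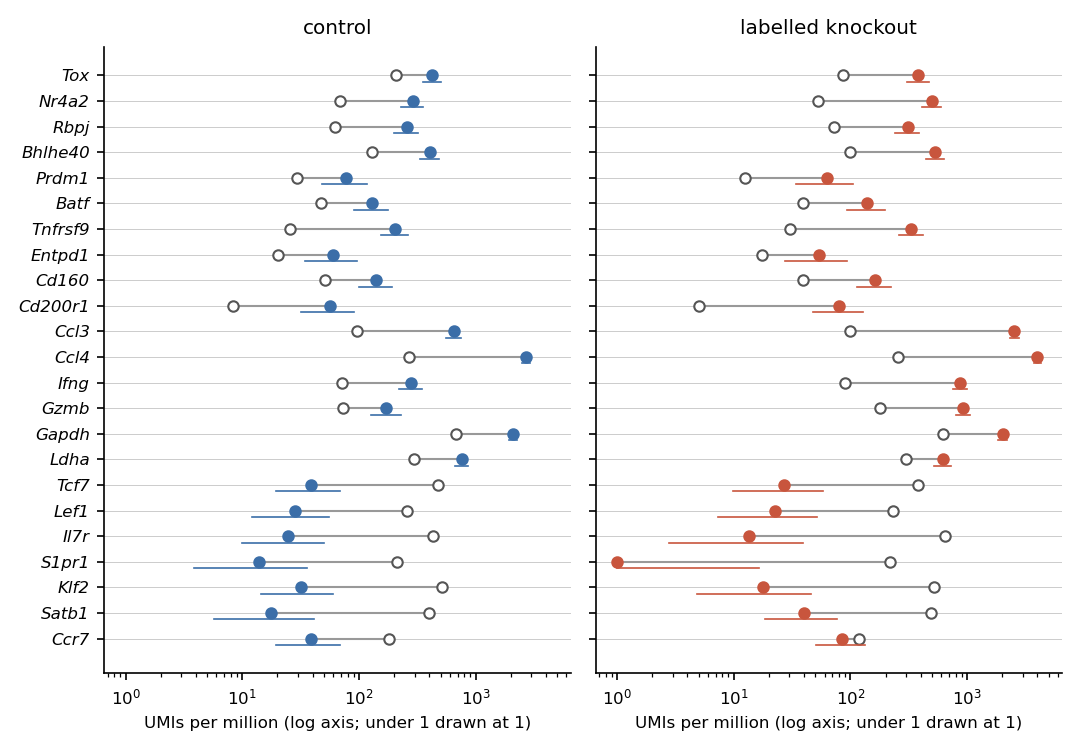
CPM (log axis) of 23 genes in checkpoint-low CD8 T cells (open points) and in members (filled points), without the myeloid-transcript-bearing cells, 1 panel per library. Lines under the filled points are 95% Poisson intervals. The upper 16 genes were higher in members and the lower 7 were lower in both libraries, with Ccr7 nearly level in the library labelled knockout.

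Between the 2 libraries, the members differed in effector and cytokine genes and in a few genes of the progenitor list. Of 5081 genes with at least 20 UMIs over both libraries, 3.31% were at least 2-fold higher in the library labelled knockout and 2.54% at least 2-fold lower, with a median log2 ratio of -0.01. Without the 15 myeloid-transcript-bearing cells, 3792 genes were left, of which 2.06% were higher and 2.87% lower, with a median of -0.03. In the following, ratios are the library labelled knockout over control, first over all members and then without those cells.

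Cytotoxic genes were higher in part, led by Gzmb. Gzmb had 164 UMIs (404 CPM) in 21 of 52 control members and 328 UMIs (967 CPM) in 40 of 50 members of the library labelled knockout. The log2 ratio was 1.25 (0.98 to 1.52). In the control library 1 cell alone held 94 of the 164 UMIs, and it was among the myeloid-transcript-bearing cells. Without those cells Gzmb stood at 172 CPM (17 of 45 cells) and 922 CPM (33 of 42 cells), a log2 ratio of 2.39 (1.94 to 2.86). With a mitochondrial limit of 5%, which left 22 and 34 members and kept the cell with 94 UMIs, the ratio was 0.19 (-0.12 to 0.51). With that limit and without the myeloid-transcript-bearing cells, 18 and 26 members were left and it was 1.62 (0.98 to 2.31). Thinned to 1500 UMIs per cell, Gzmb was found in 9 of 52 and 30 of 50 members. In B cells thinned alike it was found in 0.404% of 743 and 0.890% of 337 cells, with 586 and 80 shallower B cells left out.

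Prf1, which encodes the pore-forming perforin, gave 1.18 (0.57 to 1.82) over all members and 1.60 (0.76 to 2.48) when those cells were left out. Serpinb9, the inhibitor that protects killer cells from granzyme B, gave 1.50 (0.80 to 2.21) and 1.83 (0.99 to 2.72). Gzma went the other way, at 22 and 2 UMIs, but 19 of the 22 lay in 1 cell. Likewise 99 of the 101 Gzmf UMIs of the library labelled knockout lay in 1 cell. Over the cytotoxic list, 5 of 18 tested genes were higher and 1 lower, with a median of 0.48 (bracket from the genes' counting bounds -0.04 to 1.11). With those cells left out, 3 of 15 were higher and 1 lower, with a median of 0.31 (-0.31 to 0.90). Both brackets hold 0, but they are the typical bounds of single genes and not intervals for the list median. Ratios lay above 0 for 14 of the 18 genes, and for 10 of the 15 without those cells. Over all tested genes this held for 2464 of 5081 and 1817 of 3792. Whether the list as a whole differed was not tested.

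Of the NK-type receptor list, 3 of 9 tested genes (Klrd1, Klrk1 and Klre1) were higher in the library labelled knockout and 1 (Fcgr3, an Fc receptor) was lower. The median was 0.32 (-0.04 to 0.85), a bracket that holds 0. When myeloid-transcript-bearing cells were left out, 3 of 6 were higher and none lower, with a median of 1.12 (0.73 to 1.70). The higher genes are described with 2 neighbours, a group chosen by position after their values were seen. Klre1, Klrd1, Klrk1, Klrc2 and Klrc1 lie in this order within 101 kb of chromosome 6 (129577905 to 129678973, GRCm38). Klrd1 encodes CD94, the partner chain of the receptors that Klrc1 and Klrc2 encode. It had 134 UMIs in 28 control members and 241 UMIs in 36 members of the library labelled knockout, with log2 ratios of 1.09 (0.79 to 1.41) and 1.66 (1.29 to 2.03).

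Klrk1 had 41 UMIs in 16 members and 121 UMIs in 34, with ratios of 1.77 (1.27 to 2.29) and 1.89 (1.28 to 2.51). Klrc1, which encodes the inhibitory chain NKG2A, had 12 UMIs in 8 members and 51 UMIs in 23, with ratios of 2.17 (1.33 to 3.04) and 2.20 (1.26 to 3.19). Klre1, a further lectin-like receptor, had 6 UMIs in 5 members and 53 UMIs in 19, with ratios of 3.03 (2.02 to 4.03) and 3.05 (1.97 to 4.17). Klrc2, between Klrk1 and Klrc1, had 34 and 33 UMIs and ratios of 0.20 (-0.49 to 0.90) and 0.59 (-0.19 to 1.37), so it was not separated. Klrc1 and Klrc2 are close paralogs, so how reads divide between them is uncertain. NK cell markers stood at 811 and 642 CPM over the list of 9, with UMIs in 34 of 52 and 32 of 50 members. Without the myeloid-transcript-bearing cells they stood at 407 and 255 CPM. Ncr1, Klrb1c and Klra8 had no UMI in any member of either library. Klra4 and Klra7 had none in control members but were found in the library labelled knockout, and every other gene of the list had UMIs in both.

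In checkpoint-low CD8 T cells the same 4 genes differed little between libraries. Their log2 ratios there, also without such cells, were 0.11 for Klrd1, 0.26 for Klrk1, -0.09 for Klrc1 and -0.32 for Klre1. Gzmb was higher in the checkpoint-low cells as well, at 73.0 and 181 CPM (log2 ratio 1.25). Cycling checkpoint-high cells gave 0.72 (0.28 to 1.17) for Klrd1, 0.78 (0.16 to 1.41) for Klrk1, 0.70 (-0.26 to 1.65) for Klrc1 and 0.40 (-0.70 to 1.49) for Klre1. Whether the ratios differ between these classes was not tested. Of the 40 cycling checkpoint-high cells in each library, 4 in the control library and 16 in the other bore myeloid transcripts. The NK-type receptor list had a median of 0.82 (0.14 to 1.18) over all cycling checkpoint-high cells and 0.56 (0.03 to 1.29) without those. With the mitochondrial limit of 5% over all members, Klrd1 gave 0.36 (-0.05 to 0.79), and 0.93 (0.40 to 1.48) with that limit and without the myeloid-transcript-bearing cells. Klrk1, Klrc1 and Klre1 gave 1.84, 2.98 and 2.98 in that last setting.

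Cytokine and chemokine genes were split, with Ccl3 higher and Xcl1 lower in the library labelled knockout. Ifng and Ccl5 were past the 2-fold limit when the myeloid-transcript-bearing cells were left out, and not over all members. Ccl3, an inflammatory chemokine, had 451 UMIs (1111 CPM) in 28 control members and 794 UMIs (2340 CPM) in 35 members. Its ratios were 1.07 (0.90 to 1.24) and 1.96 (1.72 to 2.21), and 1 control cell held 224 of the UMIs, the same cell that held 94 of Gzmb. At the mitochondrial limit of 5% the ratio was 0.33 (0.14 to 0.51), and 1.54 (1.24 to 1.85) with that limit and without the myeloid-transcript-bearing cells. In cycling checkpoint-high cells, without those that bear myeloid transcripts, Ccl3 gave 1.38 (1.22 to 1.53), whereas checkpoint-low cells gave 0.04.

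Ifng had ratios of 0.96 (0.66 to 1.25) and 1.63 (1.25 to 2.02). Ccl5, a chemokine of memory and effector T cells, had 0.81 (0.73 to 0.90) and 1.18 (1.08 to 1.29). Csf1, a macrophage growth factor, had 6 UMIs in 3 control members and 23 in 12 members of the library labelled knockout, with ratios of 1.88 (0.76 to 2.96) and 1.72 (0.49 to 2.95). Spp1 (osteopontin) was level over all members (0.01) and gave 2.14 (1.15 to 3.18) without the myeloid-transcript-bearing cells. Over the list, 2 of 12 genes were higher and 1 lower, with a median of 0.37 (-0.12 to 0.78). Without those cells 6 of 12 were higher and 1 lower, with a median of 0.88 (0.46 to 1.24).

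Xcl1 encodes lymphotactin, the ligand of the receptor XCR1 on cross-presenting dendritic cells. It had 306 UMIs (754 CPM) in 21 of 52 control members and 69 UMIs (203 CPM) in 7 of 50 members of the library labelled knockout. Single control cells held 71, 70 and 47 of these UMIs, and single cells of the other library held 27 and 25. The ratios were -1.86 (-2.25 to -1.49) and -2.50 (-3.00 to -2.04). The mitochondrial limit of 5% gave -0.87 (-1.35 to -0.40), and cycling checkpoint-high cells gave -0.95 (-1.27 to -0.65). Thinned to 1500 UMIs, Xcl1 was found in 14 of 52 and 4 of 50 members, and in 0.269% and 0.297% of the B cells deep enough to be thinned.

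**Figure D3:**
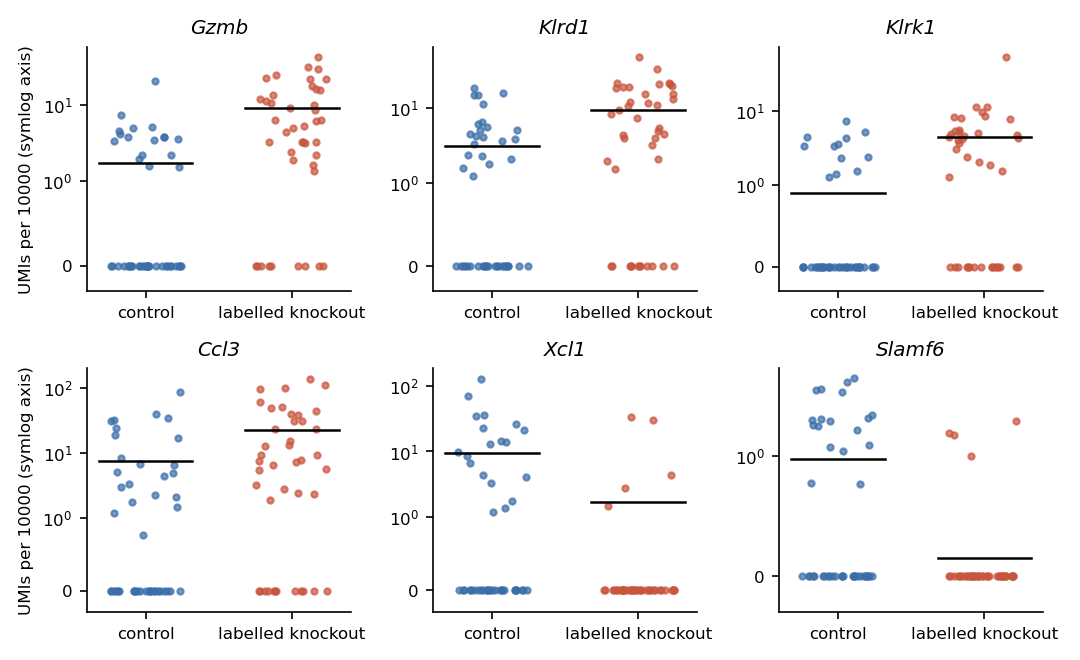
UMIs per 10000 of 6 genes in each member without the 15 myeloid-transcript-bearing cells (45 control, 42 labelled knockout), on a symmetric log axis that is linear below 1. Points are cells and bars are means over cells. Gzmb was found in 17 and 33 cells, Klrk1 in 12 and 26, Xcl1 in 19 and 5, and Slamf6 in 18 and 4.

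Genes of the progenitor list that were lower in the library labelled knockout included Slamf6, Foxo1 and Tspan32. Slamf6, a surface receptor of progenitor-type exhausted cells, had 32 UMIs in 20 control members and 4 UMIs in 4 members of the library labelled knockout. Its ratios were -2.32 (-3.45 to -1.11) and -2.12 (-3.45 to -0.81). B cells express Slamf6 themselves (28.4% and 28.3% of cells), so they give no background level for it. Foxo1, a factor of T cell quiescence, gave -1.49 (-2.50 to -0.52) and -1.59 (-2.89 to -0.32), and Tspan32, a tetraspanin, gave -1.29 (-2.24 to -0.37) and -1.60 (-2.77 to -0.50).

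Dapl1 had 37 UMIs in 6 control members and 2 in 1 member of the other library, with ratios of -3.14 (-4.13 to -1.76) and -2.56 (-3.86 to -0.97). Ly6c2, a surface protein of memory cells and monocytes that the list also holds, was higher, at 1.94 (1.36 to 2.55) and 1.53 (0.82 to 2.27). Over the list, 5 of 14 genes were lower and 2 higher, with a median of -0.52 (-1.45 to 0.35). Without the myeloid-transcript-bearing cells 4 of 9 were lower and 1 higher, with a median of -0.70 (-1.56 to 0.13). Both brackets hold 0, and among the 24 and 18 members with under 3 UMIs of the other cell type markers the median of the 3 genes left was 0.56. Tcf7 itself had 19 UMIs in 8 control members and 7 UMIs in 3 members of the library labelled knockout.

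Among adhesion, costimulation and signalling genes a few more differed. Itgb1, the beta-1 integrin chain, gave -1.23 (-1.71 to -0.76) and -1.47 (-2.05 to -0.92), and it was lower in checkpoint-low cells too (-1.20 without the myeloid-transcript-bearing cells). Crtam, an adhesion receptor of activated T cells, gave -1.40 (-2.21 to -0.63) and -1.62 (-2.53 to -0.78), and turned to 0.57 (-0.76 to 1.97) at the mitochondrial limit of 5%. Il2ra, the interleukin-2 receptor alpha chain, gave -0.27 (-1.03 to 0.47) over all members and -2.22 (-3.54 to -0.92) without those cells, where 29 UMIs lay in 7 control cells and 4 UMIs in 1 cell. Maf, a transcription factor of late effector and exhausted cells, gave 1.34 (0.62 to 2.08) and 2.27 (1.12 to 3.44). Dusp2, a MAP kinase phosphatase, gave 1.12 (0.58 to 1.66) and 1.24 (0.66 to 1.83).

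The lists of exhaustion transcription factors and of inhibitory receptors outside the selection each had 1 gene past the limit between the libraries over all members. Their medians were -0.02 (-0.62 to 0.63; 1 of 20 higher) and 0.19 (-0.57 to 0.94; 1 of 12 higher), and 0.03 and 0.33 without the myeloid-transcript-bearing cells. The gene that was higher in the first was Maf, and in the second Klrc1. Costimulation receptors had a median of 0.16 with 1 of 22 genes lower, glycolysis and hypoxia genes 0.04 with 1 of 22 higher and 1 lower, and dissociation stress genes 0.08 with 1 of 23 higher. T cell receptor early response genes had a median of 0.30, with 3 of 20 higher and 3 lower. The interferon-gamma and MHC class I list had 0.34 with 4 of 33 higher, trafficking genes 0.25 with 2 of 19 lower, and cell cycle genes outside the selection 0.32 with 1 of 19 higher. With the myeloid-transcript-bearing cells left out, trafficking genes had 2 of 18 higher and 1 lower (median 0.36), and cell cycle genes none of 15 higher and 1 lower (-0.02). The interferon-gamma and MHC class I list then had 1 of 24 higher (0.22), and T cell receptor response genes 2 of 16 higher and 2 lower (0.06). Costimulation receptors had 2 of 20 lower (0.07), glycolysis and hypoxia genes none of 16 in either direction (-0.09), and stress genes 1 of 20 higher (0.12).

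Outside the lists, the 10 genes with the largest ratios toward the library labelled knockout were Mxd1, Marcks, Dynll2, Capn2, Pttg1, S100a6, Ythdf2, Gpd2, Fam3c and Litaf. Mxd1, a MAX-binding repressor, gave 2.75 (1.77 to 3.73), and S100a6, a calcium-binding protein, gave 1.13 (0.94 to 1.32). Without the myeloid-transcript-bearing cells Mxd1 gave 1.79 (0.57 to 3.01) and S100a6 1.80 (1.53 to 2.07). Of the 10, Marcks, Capn2 and Fam3c were not past the limit without those cells. Toward the control library the 10 were Irak1, Kars, Rora, Mxd4, Bdp1, Ddx21, Snhg6, Adrm1, Gm42418 and Crebbp, of which Snhg6 and Adrm1 were not past it without those cells. Rora, a nuclear receptor, gave -1.35 (-2.19 to -0.56) and, without those cells, -1.50 (-2.45 to -0.62). Mxd4, another MAX-binding repressor, gave -1.35 (-1.91 to -0.82) and -1.03 (-1.65 to -0.45).

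**Figure D4:**
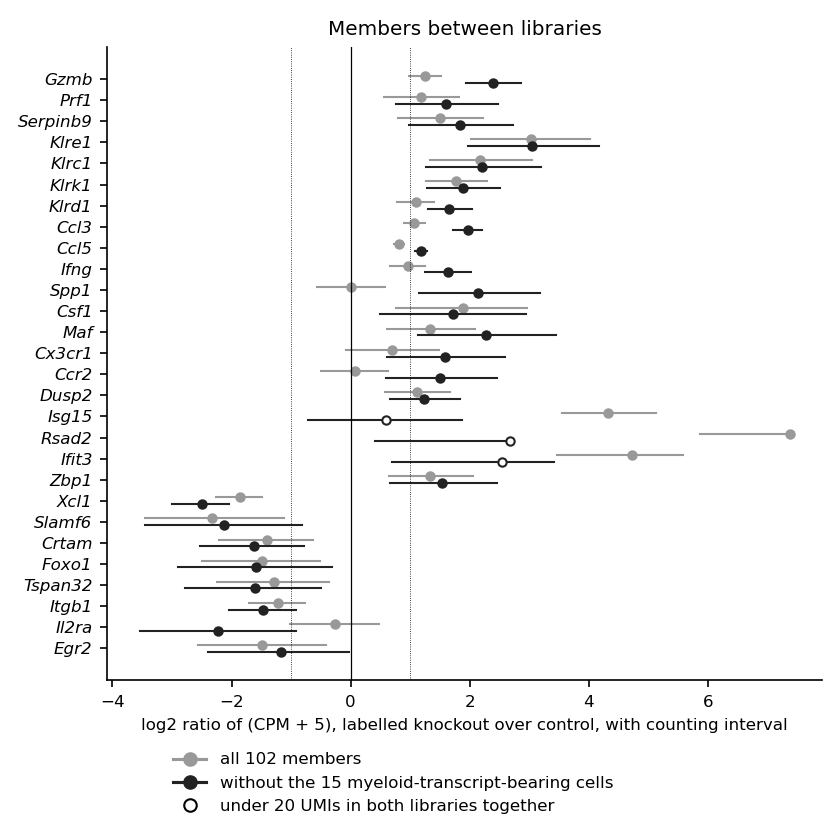
Log2 ratio of (CPM + 5) for 28 genes, as the library labelled knockout divided by the control library, with 95% counting intervals, for all 102 members (grey) and without the 15 myeloid-transcript-bearing cells (black). Open points had under 20 UMIs over both libraries. Isg15, Rsad2 and Ifit3 moved toward 0 and fell under 20 UMIs without those cells, while Gzmb, Ccl3 and Klrd1 moved away from 0.

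Interferon-stimulated genes were higher in the library labelled knockout over all members, and most of that signal lay in 3 cells. Of 47 tested genes of the list, 23 were higher and none lower, with a median of 0.97 (0.21 to 1.81). Isg15 had 11 UMIs in 11 control members, 1 in each, and 215 UMIs in 11 members of the library labelled knockout, with 109 in 1 of them. Rsad2 had no UMI in the control members and 279 UMIs in 9 members of the other library, at least 111-fold higher against a floor of 3 UMIs. The myeloid-transcript-bearing cells held 205 of the 215 Isg15 UMIs and 273 of the 279 Rsad2 UMIs. Cxcl10, a chemokine named here after its values were seen, had 1 UMI in the control members and 522 in the others, all in myeloid-transcript-bearing cells. In checkpoint-low CD8 T cells 18 of 52 list genes were higher and none lower (median 0.71), beside 246 of 8263 tested genes higher. Without the myeloid-transcript-bearing cells 5 of 48 were higher and none lower (0.36), beside 48 of 7536. In cycling checkpoint-high cells 1 of 31 was higher and none lower (0.14), beside 211 of 6605 tested genes higher. Without the myeloid-transcript-bearing cells 3 of 25 were lower and none higher (0.20), beside 108 of 5317 lower.

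Per cell, the interferon-stimulated list made up a median of 0.425% of UMIs (lowest 0.158, highest 1.41) in control members and 0.421% (0.154 to 7.26) in members of the library labelled knockout. The medians were thus nearly equal, and the summed levels of 4164 and 9384 CPM differed through the upper end. In the library labelled knockout 3 cells held 1694 of the 3184 list UMIs (53.2%). Without the myeloid-transcript-bearing cells the sums were 4183 and 5354 CPM.

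Without those cells 26 list genes were tested, with a median of 0.53 (-0.51 to 1.32), 1 higher and 1 lower. The higher gene was Zbp1, a nucleic acid sensor, at 1.54 (0.66 to 2.45), and the lower was Usp25, a deubiquitinase, at -1.41 (-2.60 to -0.28). Usp18 had 2 UMIs in each library there, too few to be tested. Ifit3, an antiviral protein, had 1 and 10 UMIs, and Rsad2 had none and 6, both too few to be tested. With the mitochondrial limit of 5% as well, the list's median was -0.43 (-1.13 to 0.68) over 15 genes. Among these remaining cells 2 of 42 in the library labelled knockout had over 2% list UMIs, up to 3.69%, and none of 45 in the control library. The part of the myeloid transcripts in the interferon-stimulated UMIs of the 15 cells was not tested.

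**Figure D5:**
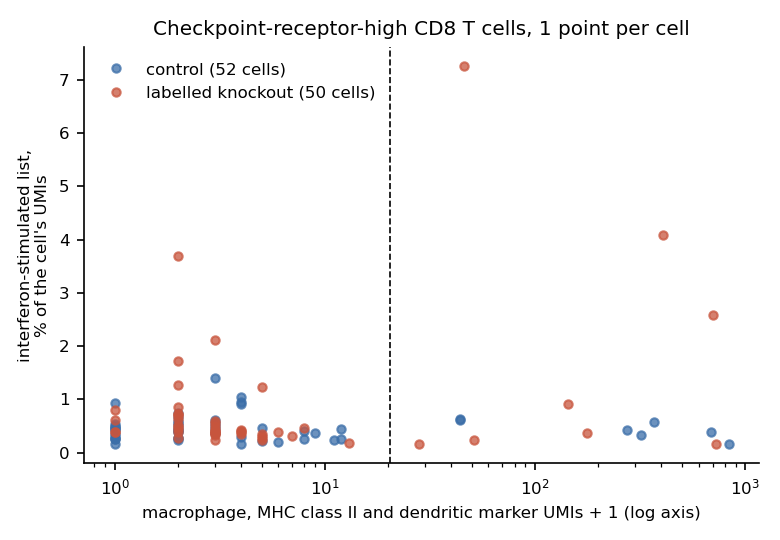
Share of each member's UMIs from the interferon-stimulated list (vertical axis, percent) against its myeloid marker UMIs plus 1 (horizontal axis, log scale), 1 point per cell. The dashed line marks 20 UMIs, and right of it lie 7 control cells, all under 1%, and 8 cells of the library labelled knockout, of which 3 reach 2.59% to 7.26%.

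The members also varied within each library, and Havcr2 detection marked part of that variation. Without the myeloid-transcript-bearing cells, Havcr2 was found in 26 of 45 control members and 29 of 42 members of the library labelled knockout. Median depths were 5562.5 UMIs with and 5182 without Havcr2 in the control library, and 5328 and 3644 in the other. Gzmb stood at 266 CPM (194 to 356) in control members with Havcr2 and 34.5 CPM (9.41 to 88.4) in those without. In the library labelled knockout it stood at 1100 CPM (949 to 1268) and 316 CPM (181 to 514).

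Ccl4 was at 4025 and 769 CPM in control members with and without Havcr2, and at 4867 and 1087 CPM in the library labelled knockout. Xcl1 ran the other way in control members, at 627 CPM (513 to 758) with Havcr2 and 1701 CPM (1472 to 1956) without. In the library labelled knockout its CPM had the reverse order, from 5 cells. It was at 220 CPM (156 to 302) with Havcr2 and 59.3 CPM (12.2 to 173) without. By cells the order was the same in both libraries. Xcl1 was found in 8 of 26 control members with Havcr2 and 11 of 19 without, and in 2 of 29 and 3 of 13 in the other library. Single cells with Havcr2 held 70 of the 106 control UMIs and 27 of the 38 in the other library. Tcf7 had 1 UMI in the 26 control members with Havcr2 and 10 UMIs in the 19 without, and 0 and 6 UMIs in the library labelled knockout. Tox was alike in both strata, at 437 (343 to 549) and 406 CPM (298 to 540) in control members. Havcr2 belongs to the selection, so these strata are a description.

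Detection of Xcl1 and Gzmb was mostly in different control cells. Of 45 control members, 19 had Xcl1 and 17 had Gzmb, and 3 had both. Of the 19 cells with Xcl1, 12 also had Slamf6 and 10 had Crtam, a set that 18 and 14 cells carried in all. In the library labelled knockout 33 of 42 members had Gzmb and 5 had Xcl1, with 1 cell that had both, and no cell had both Xcl1 and Slamf6. Klrd1 was found in 22 control members, 6 of them with Gzmb, and in 30 members of the library labelled knockout, 25 of them with Gzmb. These joint counts also follow how often each gene was found alone, and no association was tested. Ifng and Ccl3 were found together in 15 and 25 members. In cells of this depth a gene without a UMI may still be expressed.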

How the data were processed

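The authors sequenced 10x Genomics Chromium 3′ libraries and deposited raw UMI counts per gene and barcode, not normalized, made with Cell Ranger 3.0.1 on mm10, per the submitters' processing notes and the file headers. Of 27998 gene identifiers, 27645 (98.7%) matched GENCODE M21, used for positions. Analyses were run in Python 3.11.15 with numpy 2.4.6, scipy 1.17.1 and scanpy 1.11.5 (Scrublet). UMIs of the members were summed per library (405880 and 339307) and expressed as CPM with exact Poisson intervals. Ratios are log2 of (CPM + 5) over (CPM + 5) for genes that reach 20 UMIs in the compared groups together, with bounds from the exact binomial interval. A gene was past the limit at an absolute log2 ratio of at least 1 with bounds that exclude 0. A list is given by its median and counts, bracketed by the medians of its genes' bounds. Named genes were list genes with at least 20 UMIs and, outside the lists and between libraries, up to 10 per direction with at least 50 UMIs, detected in at least 5% of the higher library's members, with no cell above 20% of the UMIs; technical genes were left out. For high against low CD8 T cells, up to 10 per direction past the limit in both libraries with at least 50 UMIs in each were ranked by the smaller ratio, with no limit on cells. Doublets were not removed in the main values; alternatives changed the receptor limit, mitochondrial limit, doublets, depth, sex-linked transcripts, pseudocount, filter, averaging, centring and myeloid-transcript-bearing cells. The ratio calculation was tested on simulated sums drawn with counting error only, which leaves out the uneven spread of UMIs over cells. The members and lists were chosen with earlier results of these data known. Of the listed genes, 14 had no entry under their symbol in the feature table and were not analysed here. Some genes that the rules select are not reported here.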

Additional observations from a re-analysis of the deposited data

Results flagged for a closer look

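Some genes moved in opposite directions between members and checkpoint-low CD8 T cells in the 2 libraries, and these differences were not tested. Klre1 gave log2 ratios of -1.51 (control) and 1.96 (labelled knockout). Klrc1 gave -1.06 and 1.42. Among interferon-stimulated genes, Isg15 gave -1.12 and 1.15, Ifit3 gave -1.79 and 1.57, and Rsad2 gave -2.18 and 2.62. Rsad2 had no UMI in control members, so -2.18 depends on the added 5 CPM, and against a floor of 3 UMIs the gene was at least 2.39-fold lower there. The myeloid markers Cd209a and Chil3 ran the other way, with 1.30 and -2.01 for Cd209a and 1.36 and -2.04 for Chil3. So did Fcgr3 of the NK-type receptor list (1.83 and -1.95) and Spp1 of the cytokine list (1.41 and -1.35). Without the myeloid-transcript-bearing cells Klre1 kept both directions, at -1.19 and 2.18, and Isg15 gave -0.10 and -0.78.

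Xist, which belongs to no comparison of the expression lists, stood at 1126 CPM in members of the library labelled knockout and at 222 CPM in control members.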

How the results depend on the processing

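Settings that moved a share beyond its main interval, or a list median beyond its main bracket, are given first. The log2 ratio of the share among kept barcodes moved from 0.25 to 1.54 in cells with Xist and no Y-linked UMI, to -1.86 in cells with a Y-linked UMI and no Xist, and to 1.02 after thinning to 1500 UMIs. The share among non-cycling CD8 T cells moved from 0.42 to 1.58, -1.38 and 1.39 under the same settings. Without cells that held 3 or more UMIs of the 4 marker lists, the progenitor median between libraries was 0.56, and against checkpoint-low cells it was -2.75 (control) and -3.18 (labelled knockout). The latter was -4.42 after thinning to 1500 UMIs, and the control one was -2.55 at a mitochondrial limit of 5%. That limit reversed Crtam (0.57) and Ier3 (0.078). Together with leaving out the myeloid-transcript-bearing cells, a combination chosen after seeing the data, it reversed the interferon-stimulated median (-0.43) and Herc6 (-0.041). The cause was not tested, although fewer genes and cells were left in each of these settings. Over 96 named genes and all settings, 796 values stayed within the main interval, 108 moved outside it and 2 genes reversed at the limit of 5% alone.

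Removing the highest Scrublet scores took out 6 control members and none in the other library. Expression between libraries within 1 sex, or after thinning, was not run, because fewer than 10 members were left in a library. No paired analysis was possible because each group has 1 library. Depth limits all genes with few UMIs: 1 UMI is worth 2.46 CPM in control members and 2.95 CPM in the others, and the intervals hold counting error only.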
